A study of Mus musculus with 6 samples.

Results

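The nuclear receptors and coregulators described here are 42 genes of the 25403 in the count table, taken by symbol from a named list. They comprise 36 nuclear receptors and 6 coregulators, the proteins that receptors recruit to switch transcription on or off. Each symbol had 1 row in the table. Of the 42 genes, 40 passed the filter on low counts, and 37 of these averaged at least 50 counts per liver and are described individually. The liver RNA came from 3 mice labelled WT, of the strain C57BL6/J, and 3 mice labelled Themis KO, described as a whole-body knockout of *Themis*, a gene of the T cell receptor pathway. All 6 mice ate a diet that induces metabolic dysfunction–associated steatohepatitis (MASH), in which fat gave 40% and fructose 20% of the energy and cholesterol made up 2%, begun at 10 to 12 weeks of age and kept up for 3 months. A whole-body knockout affects every cell type, T cells included, and no group on a control diet is compared here. Poly(A) RNA of frozen liver was sequenced in 1 library per mouse, and WT and Themis KO below stand for the labels of these livers.

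Nuclear receptors are regulators of transcription that, in most cases, carry a zinc-finger DNA-binding domain and a pocket for a small lipophilic ligand. Such ligands include fatty acids, bile acids, oxysterols, retinoids, thyroid hormone and steroids. Many bind DNA as a heterodimer with a retinoid X receptor (RXR). Several of them recruit corepressors such as NCOR1 without an activating ligand and coactivators such as the NCOA proteins and PGC-1α with it. In the liver, nuclear receptors set the expression of genes for bile acid, lipid, glucose and drug metabolism.

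Each library held 20679642 to 25649767 counts in total. The targeted gene did not separate the labels: *Themis* had 8.07, 25.6 and 12.0 CPM in WT and 8.63, 7.74 and 9.97 CPM in Themis KO (log2 fold change −0.79, SE 0.38, adjusted p = 0.199), so the highest value belonged to WT 2 and the other WT livers lay near or within the range of Themis KO. Whether the deleted part of the gene lies outside the counted sequence is not given in the sources used here, so these counts do not verify the labels. Between livers of a group, the chi-square of the counts per degree of freedom was 41.0 and 42.3 for Themis KO 3 against Themis KO 1 and 2. It was 9.80 between Themis KO 1 and 2, and 36.1, 27.6 and 28.4 for the pairs of WT livers. Themis KO 1 and 2 were thus more alike than any other pair, and Themis KO 3 differed from them somewhat more than WT livers differed from each other. A near-identical pair of mitochondrial features set WT 1 and WT 2 apart from the other livers. *Gm28438* took 96.6% and 96.8% of the counts it shares with *mt-Nd3* in WT 1 and WT 2 and between 2.20% and 3.26% in the other 4 livers. Markers of liver cell types moved with the labels as well. The summed level of 10 hepatocyte markers was 56700 to 63100 CPM (counts scaled to library size by TMM) in WT and 48000 to 51300 CPM in Themis KO. All 10 had a negative fold change, and 2 passed edgeR's test, both lower (none with upper-quartile scaling), while DESeq2 called 6 lower. The sums of 8 cholangiocyte markers (167 to 207 against 399 to 629 CPM), 11 hepatic stellate cell markers (452 to 516 against 688 to 739 CPM) and 8 endothelial markers (216 to 237 against 241 to 266 CPM) were higher in Themis KO with no overlap. EdgeR called 1 of 7, 6 of 11 and 1 of 8 tested genes higher, and DESeq2 called 3, 7 and 1. *Spp1*, the 1 cholangiocyte marker called by edgeR, made up 81.9% to 92.1% of the cholangiocyte sum, and the other 7 markers summed to 27.0 to 31.3 CPM in WT and 31.5 to 58.4 CPM in Themis KO. The macrophage sum overlapped at 407 to 702 against 688 to 901 CPM. Of the 12 macrophage markers, 11 had a positive fold change, and edgeR called 3 higher and DESeq2 8. The T cell sum overlapped at 4.46 to 6.08 against 3.44 to 7.95 CPM, with 1 of 6 called lower, and the B cell sum at 11.6 to 18.3 against 7.23 to 15.5 CPM, with 0 of 5 called by edgeR, 0 by DESeq2 and 0 at an unadjusted p under 0.05. None of the markers in these lists was at 0 in every liver. In bulk RNA, fewer cells of a type and less RNA per cell cannot be told apart, and the part of cell composition, of the mitochondrial type or of liver 3 in the results below was not tested except where a value is given.

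The first question was whether any receptor or coregulator differed in level between WT and Themis KO. By the quasi-likelihood test of edgeR, adjusted over 14496 genes by the Benjamini-Hochberg procedure, 3 of 40 tested members fell in Themis KO and none rose, while DESeq2 called 6 lower and 1 higher. Over all genes DESeq2 called 1090 lower and 1279 higher of 13929, also more than edgeR. The 3 that fell by edgeR's test were *Rxra*, the common heterodimer partner, *Ppara*, the fatty acid sensor that drives genes of fatty acid oxidation, and *Nr0b2*, which encodes the small heterodimer partner SHP, a repressor induced by bile acid signaling. The share called was 7.5% of the members, beside 9.11% of all genes tested (4.97% higher and 4.14% lower). Before adjustment, 3 members were higher and 11 lower at p under 0.05, which is 35.0% of the members beside 30.7% of all genes. Neither share sets the members as a group apart from the background, and each of the 3 changes was under 2-fold, whereas 2.97% of all genes were called with a change of at least 2-fold. The median log2 fold change of the 40 members was −0.10, beside 0.01 for all genes, with 15 values above 0 and 25 below. The 6 livers separated by label with no overlap for 11 members (27.5%, beside 34.6% of all genes), and of these 8 were lower and 3 higher in Themis KO. Scaling by total counts alone moved the median of all genes to 0.15 and the calls over all genes from 721 higher and 600 lower to 1449 and 387. It turned the members' median to 0.04 with 23 values above 0 and 17 below, and under it *Ppara* alone was called lower and *Rarg* alone higher among the members. For 18 members the log2 fold change was within 0.2 of 0. The 3 calls depended on the livers used. Leaving out WT 1, WT 2, WT 3, Themis KO 1 or Themis KO 2 left 0 members called by edgeR, whereas leaving out Themis KO 3 left 4 higher (*Nr4a1*, *Nr4a3*, *Rarg* and *Ncoa3*) and 9 lower (*Rxra*, *Ppara*, *Nr0b2*, *Nr1i3*, *Nr1h4*, *Rxrg*, *Thrb*, *Esrra* and *Ncoa2*). Without Themis KO 3, edgeR called 2228 of all 14806 tested genes higher and 2039 lower, so the calls rose over all genes as well. With the mitochondrial type as a covariate, a fit in which WT 3 is the only WT liver of its type, no member was called by edgeR. The log2 fold changes there were −0.37 for *Rxra* (SE 0.13), −0.51 for *Ppara* (SE 0.16) and −0.80 for *Nr0b2* (SE 0.24), beside −0.42, −0.52 and −0.73 without the covariate. That fit compares the labels within 1 mitochondrial type, where WT 3 is the only WT liver. The part of the type was not tested beyond this fit.

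**Figure D1:**
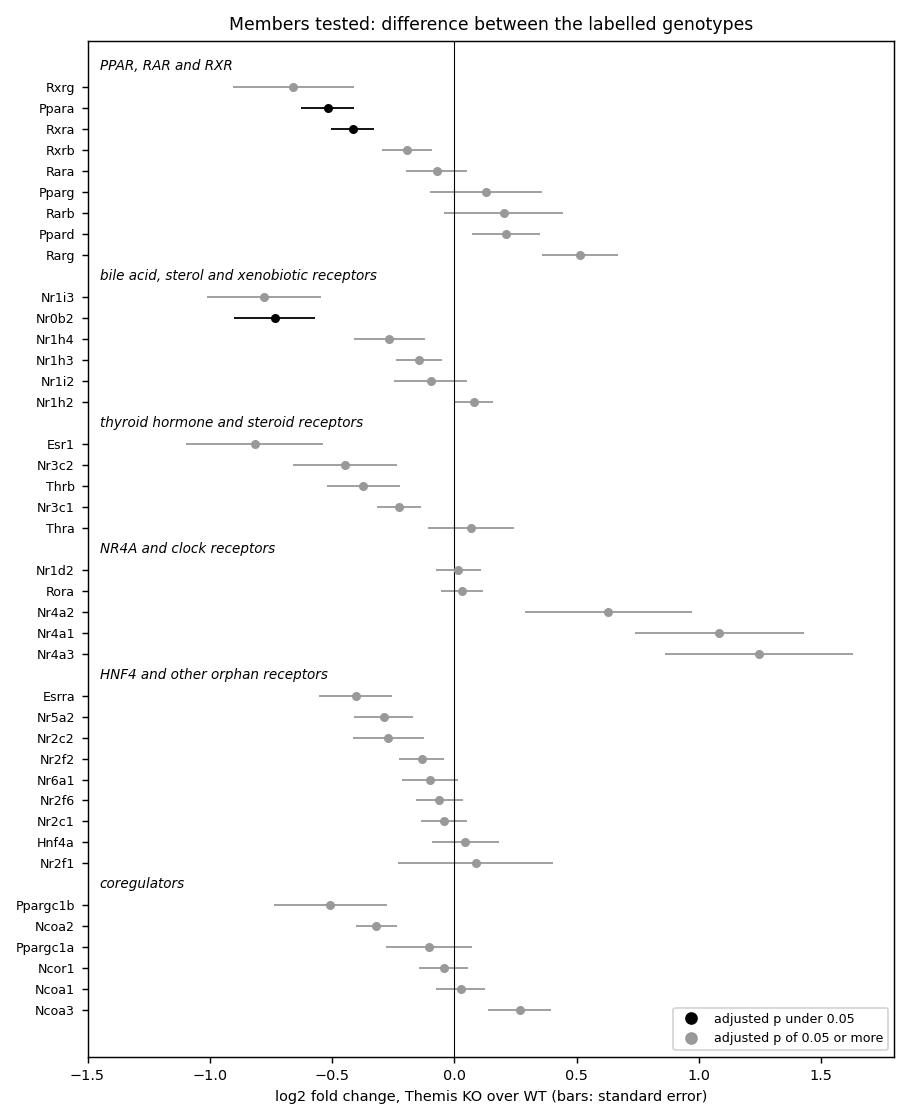
Log2 fold change of Themis KO over WT (x axis) for the 40 tested members, grouped by role, with bars for the standard error and black points for an adjusted p under 0.05 in edgeR's test. The black points are *Rxra* at −0.42, *Ppara* at −0.52 and *Nr0b2* at −0.73, and the points farthest to the right are the NR4A receptors, none of which passed the test.

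Levels were then compared among members per length, as CPM per kb of the median coding transcript. *Nr1i3*, which encodes the xenobiotic sensor CAR, had the highest mean level over the 6 livers at 169 CPM per kb, followed by *Rxra* at 151 and *Hnf4a*, a master regulator of hepatocyte genes, at 105. The ranges of *Nr1i3* (100 to 254 CPM per kb), *Rxra* (120 to 179) and *Hnf4a* (89.0 to 124) overlapped from each to the next, so their order is not separated by the spread. With all merged exons as the length, an alternative added after seeing the data, *Hnf4a* took order 1 and *Nr1i3* order 3. Below *Hnf4a*, with no overlap of ranges, came the bile acid receptor *Nr1h4* at 61.1 CPM per kb, then *Nr2f6* at 47.7, *Nr1h3* at 47.0, *Ppara* at 41.5 and *Nr1i2* at 31.1, whose neighbours in the order overlapped. The next members, from *Nr1d2* at 20.4 CPM per kb down to *Rxrb* at 12.3, lay below these with a gap in the ranges. Of the coregulators, *Ncor1* lay within that tier at 17.2 CPM per kb, and the rest were below it, with *Ncoa3* at 5.32, *Ncoa2* at 4.68, *Ncoa1* at 3.40, *Ppargc1a* at 1.85 and *Ppargc1b* at 1.19 CPM per kb. At the bottom, *Hnf4g* (1 to 4 counts per liver) and *Vdr*, the vitamin D receptor (1 to 10 counts), were too low to test.

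**Figure D2:**
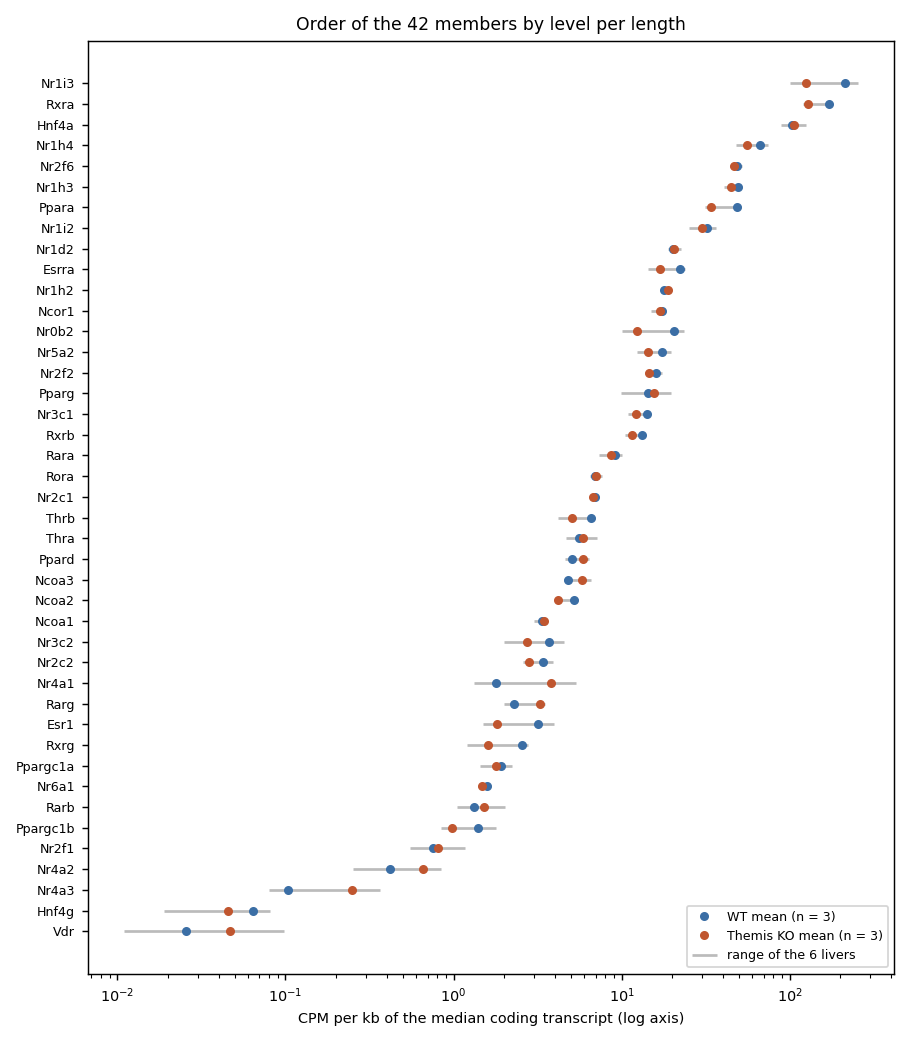
Level of the 42 members in CPM per kb of the median coding transcript (log x axis), ordered by the mean of the 6 livers, with the mean of WT, the mean of Themis KO (n = 3 each) and a grey line for the range of the 6 livers. *Nr1i3*, *Rxra* and *Hnf4a* lie at the top with overlapping ranges, and *Vdr* and *Hnf4g* at the bottom.

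The RXR partner and the receptors for fatty acids and retinoids held 2 of the 3 calls. *Rxra* (chr2:27676440-27762957, plus strand, GRCm38) had 465, 445 and 433 CPM in WT and 312, 343 and 353 CPM in Themis KO. All Themis KO livers lay below all WT livers, and the fitted level was 0.75 times that of WT (log2 fold change −0.42, SE 0.09, adjusted p = 0.0351). *Ppara* (chr15:85734983-85802819, plus strand) had 129, 118 and 122 CPM in WT and 80.1, 78.9 and 99.2 CPM in Themis KO. The groups again did not overlap, Themis KO 3 came closest to WT, and the fitted level was 30.1% lower (log2 fold change −0.52, SE 0.11, adjusted p = 0.0345). The other RXR subtypes had negative fold changes that did not pass the test. *Rxrb* had 35.1, 34.2 and 30.8 CPM in WT and 28.6, 32.2 and 26.8 CPM in Themis KO (log2 fold change −0.19, SE 0.10, adjusted p = 0.232), and Themis KO 2 reached into the WT range. *Rxrg* had 5.09, 4.89 and 4.03 CPM in WT and 2.63, 2.19 and 4.06 CPM in Themis KO (log2 fold change −0.66, SE 0.25, adjusted p = 0.122), and Themis KO 3 lay at the lower edge of the WT range. *Ppard*, the widely expressed fatty acid receptor, had 9.08, 7.34 and 7.89 CPM in WT and 10.2, 9.63 and 8.36 CPM in Themis KO (log2 fold change 0.21, SE 0.14, adjusted p = 0.333), with Themis KO 3 inside the WT range. *Pparg*, the adipogenic receptor that rises in fatty liver, had 18.2, 36.0 and 24.2 CPM in WT and 32.2, 27.1 and 26.3 CPM in Themis KO (log2 fold change 0.13, SE 0.23, adjusted p = 0.728), and the WT livers alone spanned a wider range than the Themis KO livers. Of the retinoic acid receptors, *Rarg* had 5.69, 6.14 and 7.62 CPM in WT and 9.86, 9.68 and 8.26 CPM in Themis KO and separated the groups upward, but its difference did not pass the test (log2 fold change 0.51, SE 0.16, adjusted p = 0.0745). *Rara*, the most abundant per length of the 3 RARs, had 31.5, 27.3 and 27.0 CPM in WT and 30.0, 28.6 and 22.9 CPM in Themis KO (log2 fold change −0.07, SE 0.12, adjusted p = 0.719), and the groups overlapped. *Rarb*, whose exons share 34.1% of their bases with *Top2b* on the opposite strand, had 3.07, 4.27 and 4.26 CPM in WT and 3.53, 3.96 and 5.90 CPM in Themis KO (log2 fold change 0.20, SE 0.24, adjusted p = 0.599), with the lowest value in WT 1 and the highest in Themis KO 3.

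The promoters of the 3 called genes are shown because these genes moved in the same direction and differ in the CpG content of their start sites. Sequences are from RefSeq on GRCm38.p6, which matched 36 of the 42 members, and run up to the base before the most upstream RefSeq start, with each CpG dinucleotide in capitals. The *Rxra* window lies inside a longer annotated *Rxra* transcript but in none of its exons, and for *Ppara* only the bases next to the start are printed, where no annotated exon falls.
Rxra chr2:27676951-27677200 (plus strand): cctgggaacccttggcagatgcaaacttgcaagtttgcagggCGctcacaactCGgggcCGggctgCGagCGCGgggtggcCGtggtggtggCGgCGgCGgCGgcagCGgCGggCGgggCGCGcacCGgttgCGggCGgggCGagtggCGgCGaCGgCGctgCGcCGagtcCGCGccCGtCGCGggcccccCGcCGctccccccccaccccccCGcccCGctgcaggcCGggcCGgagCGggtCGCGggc
Ppara chr15:85735714-85735775 (plus strand): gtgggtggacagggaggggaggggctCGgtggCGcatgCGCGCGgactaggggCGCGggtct
Nr0b2 chr4:133553126-133553375 (plus strand): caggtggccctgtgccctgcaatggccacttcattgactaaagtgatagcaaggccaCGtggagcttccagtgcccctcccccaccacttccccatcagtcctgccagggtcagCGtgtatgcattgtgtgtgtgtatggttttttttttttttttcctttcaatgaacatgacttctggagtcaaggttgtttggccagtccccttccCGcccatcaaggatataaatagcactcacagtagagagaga
In the whole 250 bases before the start, *Rxra* held 40 CpG dinucleotides, *Ppara* 27 and *Nr0b2* 3. The median was 16.5 over the 36 member promoters and 6 over 27018 promoters of all genes, so *Rxra* and *Ppara* lay above both medians and *Nr0b2* below. The hexamer AGGTCA, the core element of many nuclear receptor binding sites, searched on both strands, was in 6 of 36 member promoters (*Nr1d2*, *Nr1h4*, *Nr5a2*, *Pparg*, *Rarg* and *Thrb*), which is 16.7% beside 13.8% of all promoters. It was in none of the 3 promoters shown. The direct repeat of this hexamer with a spacer of 1 base, the form that PPAR and RXR pairs bind, was in 0 of the 36 windows and in 0.037% of all promoters.

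Receptors for bile acids, sterols and xenobiotics held the third call. *Nr0b2* (chr4:133553376-133556536, plus strand) had 18.7, 26.4 and 24.2 CPM in WT and 11.4, 15.1 and 15.1 CPM in Themis KO. Every Themis KO liver was below every WT liver, and the fitted level was 39.9% lower (log2 fold change −0.73, SE 0.17, adjusted p = 0.0397). *Nr1h4* encodes FXR, the bile acid receptor that induces *Nr0b2*, and had 118, 148 and 130 CPM in WT and 103, 94.5 and 133 CPM in Themis KO. Themis KO 3 lay inside the WT range while the other Themis KO livers lay below it, and the difference did not pass the test (log2 fold change −0.27, SE 0.15, adjusted p = 0.25). *Nr1i3* had 247, 352 and 288 CPM in WT and 139, 139 and 240 CPM in Themis KO. All Themis KO livers were below all WT livers, with Themis KO 3 close to WT 1, and the fit gave a level 41.7% lower that did not pass the test (log2 fold change −0.78, SE 0.23, adjusted p = 0.072). *Nr1i3* shares 74.9% of its exon bases with *Tomm40l* on the opposite strand, and whether counting used the strand is not given in the sources used here. *Tomm40l* itself was at 0.0039 on the log2 scale (SE 0.10, adjusted p = 0.984). *Nr1i2* encodes the xenobiotic sensor PXR and had 85.4, 89.8 and 71.2 CPM in WT and 64.0, 73.8 and 92.6 CPM in Themis KO (log2 fold change −0.10, SE 0.15, adjusted p = 0.687), with both the lowest and the highest value in Themis KO. The oxysterol receptors differed little. *Nr1h3*, encoding LXRα, had 89.0, 81.1 and 92.1 CPM in WT and 71.9, 81.1 and 84.1 CPM in Themis KO (log2 fold change −0.15, SE 0.09, adjusted p = 0.323), and the groups overlapped. *Nr1h2*, encoding LXRβ, had 36.1, 34.8 and 33.9 CPM in WT and 36.1, 38.3 and 36.4 CPM in Themis KO (log2 fold change 0.08, SE 0.08, adjusted p = 0.498), with no overlap of the unrounded values but a fitted difference about the size of its standard error.

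**Figure D3:**
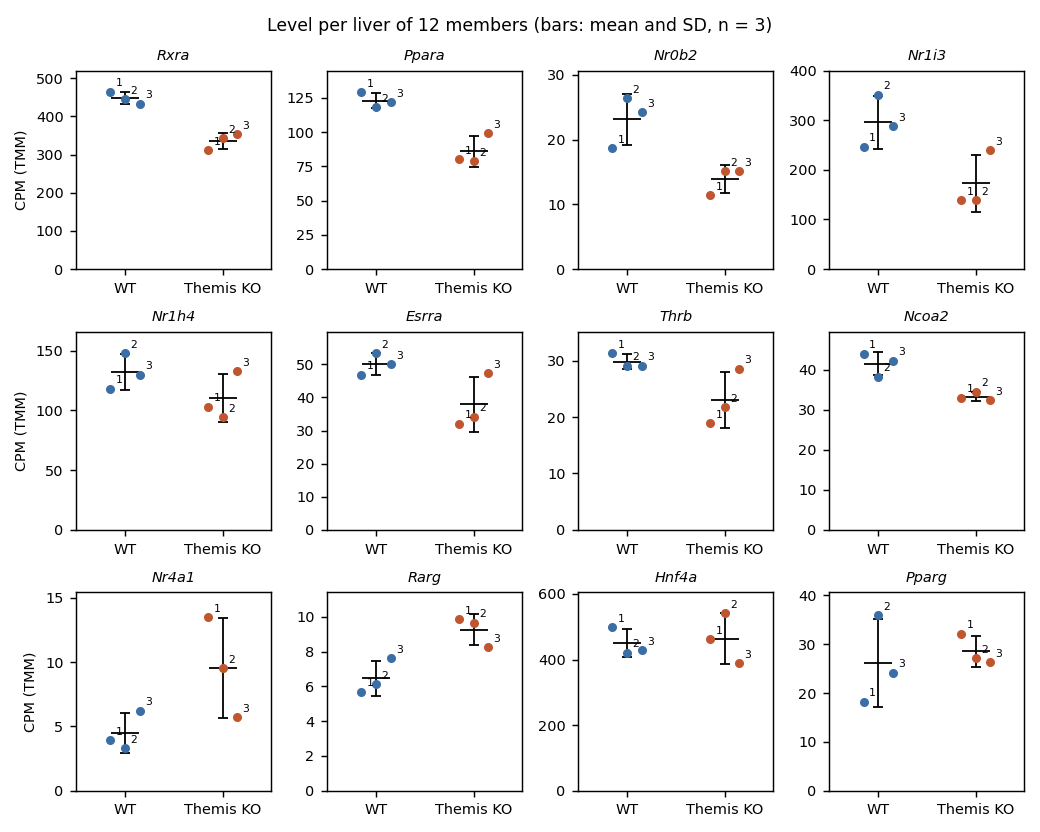
CPM (TMM-normalized, y axis from 0) of 12 members in each liver, with the replicate number beside each point and bars for the mean and SD (n = 3). *Rxra*, *Ppara* and *Nr0b2* are separated by label, Themis KO 3 lies nearest to WT for *Nr1i3*, *Nr1h4*, *Esrra*, *Thrb*, *Nr4a1* and *Rarg*, and *Hnf4a* and *Pparg* overlap.

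None of the 5 thyroid hormone and steroid receptors passed edgeR's test, while DESeq2 called *Esr1* lower and 3 of them had an unadjusted p under 0.05, all lower. *Thrb*, the main thyroid hormone receptor of hepatocytes, had 31.3, 29.1 and 29.1 CPM in WT and 18.9, 21.7 and 28.6 CPM in Themis KO. Themis KO 3 was just below the WT livers and the other Themis KO livers were farther below (log2 fold change −0.37, SE 0.15, adjusted p = 0.141). *Thra* had 11.8, 16.8 and 10.9 CPM in WT and 13.5, 12.9 and 15.1 CPM in Themis KO (log2 fold change 0.07, SE 0.17, adjusted p = 0.813), and its groups overlapped. *Nr3c1*, the glucocorticoid receptor, had 79.3, 80.9 and 80.9 CPM in WT and 74.5, 70.1 and 61.7 CPM in Themis KO. The WT livers lay within a narrow range and every Themis KO liver lay below it, by a fitted 14.4% (log2 fold change −0.22, SE 0.09, adjusted p = 0.141). *Nr3c2*, the mineralocorticoid receptor, had 14.6, 21.5 and 16.7 CPM in WT and 13.5, 9.42 and 15.9 CPM in Themis KO (log2 fold change −0.45, SE 0.21, adjusted p = 0.197), and Themis KO 3 fell between WT 1 and WT 3. *Esr1*, estrogen receptor α, had 12.8, 6.81 and 14.1 CPM in WT and 5.95, 7.91 and 5.29 CPM in Themis KO (log2 fold change −0.82, SE 0.28, adjusted p = 0.0991). WT 2 had a low *Esr1* level inside the Themis KO range, and the other WT livers lay above it.

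The NR4A receptors, products of immediate early genes that act without a known ligand, had the 3 largest positive fold changes among the members. None passed edgeR's test, while DESeq2 called *Nr4a1* higher and 2 of them had an unadjusted p under 0.05. *Nr4a1* had 3.94, 3.31 and 6.23 CPM in WT and 13.5, 9.51 and 5.71 CPM in Themis KO. Themis KO 1 and 2 were above every WT liver and Themis KO 3 was inside the WT range, and the fitted 2.12-fold difference did not pass the test (log2 fold change 1.08, SE 0.34, adjusted p = 0.0834). *Nr4a3*, at fewer than 50 counts on average, had 0.459, 0.576 and 0.75 CPM in WT and 2.08, 1.29 and 0.897 CPM in Themis KO (log2 fold change 1.25, SE 0.38, adjusted p = 0.0772), with no overlap, and *Nr4a2*, also under 50 counts, had 1.61, 0.864 and 1.85 CPM in WT and 2.89, 2.28 and 1.56 CPM in Themis KO (log2 fold change 0.63, SE 0.34, adjusted p = 0.246). In all 3 genes Themis KO 1 had the highest value of its group and Themis KO 3 the lowest. The fold changes of the clock receptors were near 0. *Nr1d2*, encoding the repressor REV-ERBβ, had 96.8, 98.0 and 89.4 CPM in WT and 105, 94.8 and 87.9 CPM in Themis KO (log2 fold change 0.02, SE 0.09, adjusted p = 0.918), and *Rora*, an activator at the same DNA elements, had 45.9, 47.3 and 46.2 CPM in WT and 46.7, 51.8 and 44.0 CPM in Themis KO (log2 fold change 0.03, SE 0.09, adjusted p = 0.825). Both overlapped between the groups, and the fitted differences were smaller than their standard errors.

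Among HNF4 and the other orphan receptors none passed edgeR's test or DESeq2, and 2 of 9 had an unadjusted p under 0.05, both lower. *Hnf4a* had 499, 421 and 429 CPM in WT and 462, 542 and 388 CPM in Themis KO (log2 fold change 0.05, SE 0.14, adjusted p = 0.842), with the highest and lowest values both in Themis KO. *Nr5a2*, encoding LRH-1, an activator of bile acid synthesis genes, had 52.2, 41.9 and 44.7 CPM in WT and 32.7, 40.4 and 40.6 CPM in Themis KO. The groups did not overlap, by a small margin between WT 2 and Themis KO 3 (log2 fold change −0.29, SE 0.12, adjusted p = 0.156). *Esrra*, which acts with PGC-1 coactivators on mitochondrial genes, had 46.9, 53.3 and 50.1 CPM in WT and 32.1, 34.2 and 47.4 CPM in Themis KO. Themis KO 1 and 2 were below every WT liver, while Themis KO 3 lay inside the WT range (log2 fold change −0.40, SE 0.15, adjusted p = 0.118). *Nr2f2*, encoding COUP-TFII, had 44.9, 51.3 and 45.2 CPM in WT and 40.4, 42.8 and 45.6 CPM in Themis KO (log2 fold change −0.13, SE 0.09, adjusted p = 0.349), and *Nr2f6* had 99.4, 110 and 115 CPM in WT and 113, 97.3 and 100 CPM in Themis KO (log2 fold change −0.06, SE 0.10, adjusted p = 0.688). Both overlapped, and *Nr2f6* shares 54.4% of its exon bases with *Ocel1* on the opposite strand. The testicular receptors were *Nr2c1*, at 15.7, 17.1 and 17.4 CPM in WT and 15.7, 16.2 and 16.9 CPM in Themis KO (log2 fold change −0.04, SE 0.09, adjusted p = 0.788), and *Nr2c2*, at 17.4, 14.1 and 19.5 CPM in WT and 15.8, 12.9 and 13.6 CPM in Themis KO (log2 fold change −0.27, SE 0.15, adjusted p = 0.244). *Nr2c1* overlapped between the groups, and *Nr2c2* overlapped through Themis KO 1, with 30.7% of its exon bases shared with *Mrps25* on the opposite strand. *Nr6a1*, encoding germ cell nuclear factor, had 8.85, 9.84 and 9.27 CPM in WT and 8.67, 8.30 and 9.12 CPM in Themis KO (log2 fold change −0.10, SE 0.12, adjusted p = 0.582), and the groups overlapped. *Nr2f1*, at fewer than 50 counts on average, lay between 0.992 and 2.08 CPM and both ends of that range were Themis KO livers (log2 fold change 0.09, SE 0.32, adjusted p = 0.87).

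None of the 6 coregulators passed edgeR's test at the threshold, and *Ncoa2* alone had an unadjusted p under 0.05 and was called lower by DESeq2. *Ncoa2*, a p160 coactivator, had 44.0, 38.3 and 42.3 CPM in WT and 33.0, 34.5 and 32.4 CPM in Themis KO. Every Themis KO liver was below every WT liver, by a fitted 19.8%, and the adjusted p fell just above the threshold (log2 fold change −0.32, SE 0.09, adjusted p = 0.0568). *Ncoa3*, a coactivator of the same family, had 30.1, 32.4 and 33.7 CPM in WT and 43.9, 40.3 and 31.5 CPM in Themis KO (log2 fold change 0.27, SE 0.13, adjusted p = 0.201). Themis KO 1 and 2 were above the WT livers, and Themis KO 3 was inside the WT range. *Ncoa1*, the remaining p160 gene, had 18.2, 21.2 and 21.7 CPM in WT and 20.2, 21.1 and 21.0 CPM in Themis KO (log2 fold change 0.03, SE 0.10, adjusted p = 0.879), and the Themis KO livers all lay inside the WT range. *Ppargc1a*, encoding the coactivator PGC-1α, had 8.76, 8.25 and 9.43 CPM in WT and 7.78, 6.62 and 10.2 CPM in Themis KO (log2 fold change −0.10, SE 0.18, adjusted p = 0.715), with the highest and the lowest value both in Themis KO. *Ppargc1b*, encoding PGC-1β, had 6.28, 4.37 and 4.03 CPM in WT and 4.16, 2.92 and 3.21 CPM in Themis KO (log2 fold change −0.51, SE 0.23, adjusted p = 0.178). Its groups overlapped through Themis KO 1, and WT 1 stood above the rest. *Ncor1*, the corepressor, had 134, 119 and 126 CPM in WT and 131, 128 and 108 CPM in Themis KO (log2 fold change −0.04, SE 0.10, adjusted p = 0.798), and the groups overlapped.

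The levels of related subtypes were next expressed as shares of the family sum in each liver, which do not depend on the scaling between libraries. Families were compared by exact two-sided permutation tests, which cannot give a p below 0.1 with 3 livers against 3. The RXR sum was 195, 187 and 181 CPM per kb in WT and 132, 145 and 148 CPM per kb in Themis KO, with no overlap (exact permutation p = 0.1, the smallest possible). *Rxra* made up 91.7% ± 0.37 of it in WT and 90.8% ± 0.56 in Themis KO (SD, n = 3), so the RXR sum followed *Rxra*. The PPAR sum was 68.3 ± 2.4 CPM per kb in WT and 55.7 ± 3.4 in Themis KO (SD, n = 3), also with no overlap (exact permutation p = 0.1). *Ppara* supplied 76.7%, 65.8% and 72.7% of the PPAR sum in WT and 57.0%, 60.0% and 66.7% in Themis KO. These shares overlapped, whereas those of *Ppard* did not, at 6.47% to 8.48% in WT and 8.87% to 11.6% in Themis KO. Within the RAR family, *Rarg* supplied 15.3%, 17.5% and 21.0% in WT and 24.3%, 24.5% and 23.8% in Themis KO, and the *Rara* share was lower with no overlap at 67.6% to 76.7% against 59.8% to 67.2%. The RAR sum overlapped, at 12.7 ± 0.38 against 13.5 ± 1.1 CPM per kb (SD, n = 3). Within the p160 coactivators, *Ncoa2* supplied 42.1%, 36.3% and 37.9% in WT and 29.3%, 31.1% and 33.0% in Themis KO, and *Ncoa3* 34.8%, 37.0% and 36.4% against 47.0%, 43.8% and 38.7%. Both shares separated the groups in opposite directions, while the p160 sum was 13.4 CPM per kb in both groups. In the LXR pair the share of *Nr1h2* was 26.7% ± 1.5 in WT and 29.9% ± 1.6 in Themis KO (SD, n = 3), with no overlap. The shares within the thyroid hormone receptor, NR4A and PGC-1 families overlapped. In this bulk liver RNA *Thrb* did not dominate its family, with a share of 54.4% ± 6.2 in WT and 46.1% ± 3.8 in Themis KO (SD, n = 3), and *Thra* supplied the rest. Of the 21 subtype shares and 8 sums computed, each was tested at n = 3 per group, so none could pass an adjusted threshold.

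**Figure D4:**
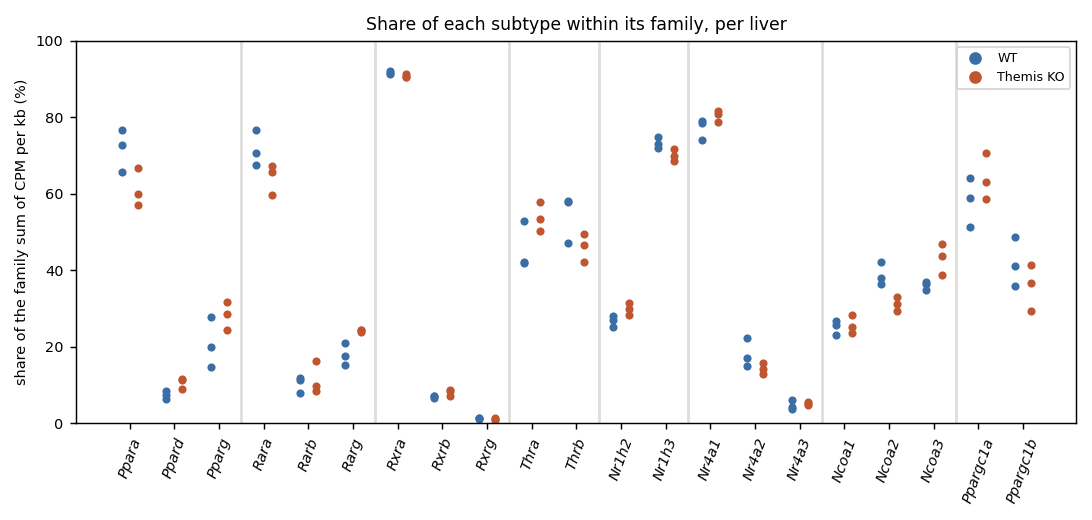
Share of each subtype (x axis) in its family's summed CPM per kb (y axis, %) in the 3 WT and 3 Themis KO livers, 1 point per liver, with lines between families. *Rxra* holds over 90% of its family in every liver, and the points of *Ncoa2*, *Ncoa3*, *Rara*, *Rarg*, *Ppard*, *Nr1h2* and *Nr1h3* do not overlap between the groups.

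Genes of the same superfamily that are not members were examined from lists written with earlier results of these data known. Of 13 other nuclear receptors, 10 were in the table and 6 were tested, and none passed edgeR's test, beside 2 lower at an unadjusted p under 0.05 and 1 lower by DESeq2. The REV-ERBα gene *Nr1d1* was at 0.17 on the log2 scale (SE 0.23, adjusted p = 0.633). Of 20 other coregulators, all tested, 1 rose, beside 4 with scaling by total counts alone, 3 with DESeq2, 8 without Themis KO 3 and 0 without any other single liver. It was *Prmt1*, an arginine methyltransferase that acts as a coactivator, at a log2 fold change of 0.47 (SE 0.11, edgeR's adjusted p = 0.0418).

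The genes that the receptors control were then counted in 11 target lists, also written with earlier results known. Of 107 target genes, 103 were tested, 7 rose and 13 fell, which is 19.4% of those tested beside 9.11% of all genes. These counts also moved with single livers: without WT 1, WT 2, Themis KO 1 or Themis KO 2, at most 1 target was higher and at most 2 were lower, without WT 3 they were 7 and 11, and without Themis KO 3 they were 11 and 34. With the mitochondrial type as a covariate 0 targets were called by edgeR. The targets of PPARα and FXR held edgeR calls in 1 direction, as did the CAR and PXR list and the PPARγ list described below. The HNF4α, ROR and REV-ERB, and retinoic acid receptor lists held 1 edgeR call each, which leaves no other call to compare in direction. For PPARα, 3 of 20 fell and none rose, with a list median of −0.18, whereas scaling by total counts alone called 2 lower and 2 higher and DESeq2 5 lower and 3 higher. *Cyp4a10*, a fatty acid ω-hydroxylase, had 292, 274 and 159 CPM in WT and 92.5, 101 and 119 CPM in Themis KO (log2 fold change −1.21, SE 0.22, adjusted p = 0.0266), and *Acot1*, an acyl-CoA thioesterase, had 50.5, 43.6 and 48.7 CPM in WT and 36.6, 32.7 and 25.6 CPM in Themis KO (log2 fold change −0.59, SE 0.14, adjusted p = 0.0416). Both were lower in every Themis KO liver than in any WT liver. *Pdk4*, a brake on glucose oxidation, had 13.7, 11.0 and 21.7 CPM in WT and 149, 85.2 and 17.2 CPM in Themis KO (log2 fold change 2.44, SE 0.67, adjusted p = 0.0596), and its groups overlapped. *Plin2* (log2 fold change 0.62, SE 0.18, adjusted p = 0.0639) and *Acot2* (log2 fold change 0.55, SE 0.20, adjusted p = 0.117) were higher with no overlap but did not pass the test. Of the 20 PPARα targets, 6 had a positive and 14 a negative fold change. For FXR, 3 of 8 fell and none rose, with a median of −0.57, and DESeq2 called 5 lower. The list mixes genes that FXR induces with genes that bile acid signaling represses, so its counts and median give no direction of FXR activity. *Slc10a1*, the bile acid uptake transporter, had 312, 322 and 301 CPM in WT and 116, 92.2 and 169 CPM in Themis KO (log2 fold change −1.31, SE 0.20, adjusted p = 0.0185), and *Slc27a5*, a bile acid CoA ligase, had 611, 629 and 522 CPM in WT and 368, 335 and 396 CPM in Themis KO (log2 fold change −0.68, SE 0.11, adjusted p = 0.0209). *Slc10a1* is known as a gene that bile acid signaling represses through SHP. *Abcb11*, the bile salt export pump and a gene induced by FXR, also fell (log2 fold change −0.45, SE 0.11, adjusted p = 0.0435), and *Cyp7a1*, the rate-limiting enzyme of bile acid synthesis, had 61.6, 166 and 85.0 CPM in WT and 11.6, 9.33 and 75.8 CPM in Themis KO (log2 fold change −1.70, SE 0.78, adjusted p = 0.183). The *Cyp7a1* values overlapped between the groups.

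Among LXR targets 2 fell and 2 rose of 10, with a median of −0.22, and DESeq2 called 3 in each direction. *Abcg8* and *Abcg5*, which together form the sterol exporter of the canalicular membrane, fell (log2 fold change −0.97, SE 0.14, adjusted p = 0.0146 and log2 fold change −0.95, SE 0.13, adjusted p = 0.0128). *Abcg8* had 191, 201 and 158 CPM in WT and 80.7, 91.8 and 108 CPM in Themis KO, and the groups did not overlap. *Abcg1* (log2 fold change 0.60, SE 0.13, adjusted p = 0.0372) and *Lpl* (log2 fold change 0.76, SE 0.18, adjusted p = 0.0412), which macrophages also express, rose. For CAR and PXR, 2 of 12 fell, with a median of −0.17 that was −0.03 with total counts alone and 0.03 with the mitochondrial type as a covariate, and DESeq2 called 3 lower and 1 higher. *Cyp2c29*, a drug-metabolizing cytochrome, had 653, 624 and 506 CPM in WT and 162, 168 and 253 CPM in Themis KO (log2 fold change −1.61, SE 0.19, adjusted p = 0.0104), and *Por*, the electron donor of the cytochromes, fell as well (log2 fold change −0.53, SE 0.11, adjusted p = 0.0367). *Cyp2b10*, the marker gene of CAR activity, had 2.80, 0.672 and 1.70 CPM in WT and 0.34, 1.42 and 1.28 CPM in Themis KO (log2 fold change −0.77, SE 0.60, adjusted p = 0.406), and its groups overlapped. The conjugating enzyme *Gsta1* (log2 fold change 1.32, SE 0.39, adjusted p = 0.0705) and the cytochrome *Cyp2b9* (log2 fold change 0.90, SE 0.29, adjusted p = 0.0845) had positive fold changes that did not pass the test, with no overlap between groups. For PPARγ, 3 of 6 tested rose and none fell, with a median of 0.54, although *Pparg* itself was not called. *Fabp4*, a lipid carrier of adipocytes and macrophages, had 32.2, 25.2 and 37.3 CPM in WT and 64.7, 61.4 and 50.3 CPM in Themis KO (log2 fold change 0.90, SE 0.16, adjusted p = 0.0246), *Plin4*, a lipid droplet coat protein, had 124, 160 and 125 CPM in WT and 268, 256 and 223 CPM in Themis KO (log2 fold change 0.87, SE 0.13, adjusted p = 0.0161), and *Cidec* rose too (log2 fold change 0.62, SE 0.11, adjusted p = 0.0249).

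The remaining lists held 0 to 2 calls each. Of 12 glucocorticoid receptor targets, the MAP kinase phosphatase *Dusp1* rose (log2 fold change 1.09, SE 0.19, adjusted p = 0.0249) and the tryptophan-degrading enzyme *Tdo2* fell (log2 fold change −0.44, SE 0.11, adjusted p = 0.0495), the latter not called with upper-quartile scaling or total counts alone. Of 6 tested retinoic acid receptor targets, *Tgm2*, a transglutaminase, rose (log2 fold change 0.75, SE 0.19, adjusted p = 0.0491). DESeq2 called 2 of these 6 higher and 1 lower. Without Themis KO 3, edgeR called 2 in each direction, and without any other single liver it called none. Of 5 tested ROR and REV-ERB targets, *Elovl3*, a fatty acid elongase, had 76.5, 66.3 and 47.9 CPM in WT and 24.4, 24.7 and 24.6 CPM in Themis KO and fell (log2 fold change −1.37, SE 0.16, adjusted p = 0.0104). Of 11 HNF4α targets, the urea cycle enzyme *Otc* fell (log2 fold change −0.54, SE 0.09, adjusted p = 0.0223), 10 of the 11 had a negative fold change (7 with scaling by total counts alone), and the median was −0.27. DESeq2 called 5 of these 11 lower, as did an unadjusted p under 0.05, and edgeR called 4 lower without Themis KO 3. None of the 6 thyroid hormone receptor targets passed edgeR's test or DESeq2, beside 1 gene in each direction at an unadjusted p under 0.05. None of the 7 ERRα and PGC-1 targets passed edgeR's test, beside 1 lower by either DESeq2 or an unadjusted p under 0.05. A target gene can answer to several receptors and to other factors, and the hepatocyte marker sum given above was lower in every Themis KO liver. The part of hepatocyte content in these counts was not tested.

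**Figure D5:**
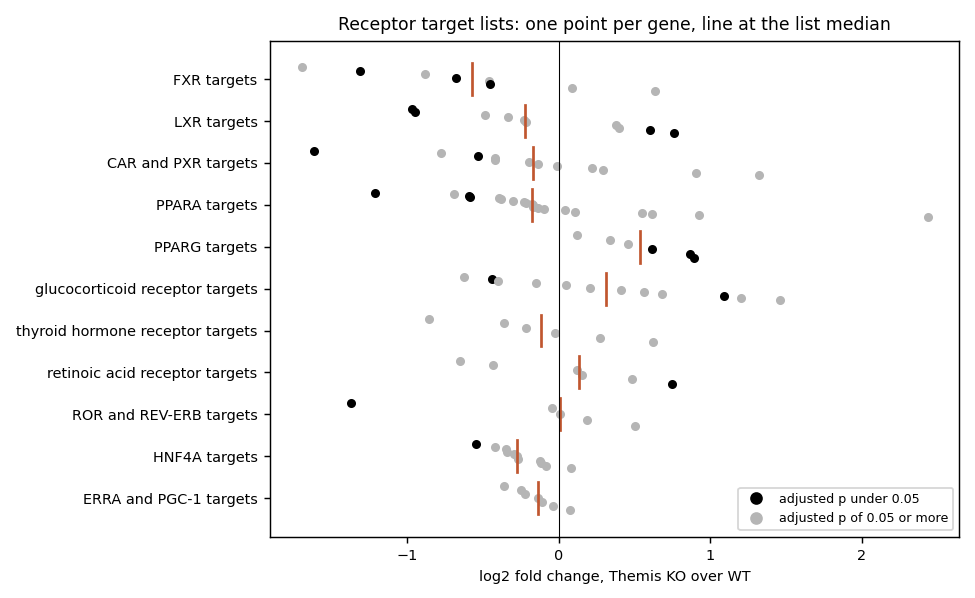
Log2 fold change of Themis KO over WT (x axis) of the tested genes of 11 receptor target lists, 1 point per gene, with black points for an adjusted p under 0.05 and a line at the list median. The FXR list, which mixes induced and repressed genes, and the HNF4A list lie mostly below 0, and all 6 PPARG target genes lie above 0.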

How the data were processed

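RNA-seq of 6 livers was analysed, 3 labelled WT and 3 labelled Themis KO, with groups taken from the sample labels. Per the labels and the study's methods, the authors trimmed reads with cutadapt 2.3, aligned them to GRCm38 with STAR 2.7.8a and deposited RSEM 1.3.3 expected counts per gene, which are whole numbers in the table. Counts were tested in R 4.3.3 with edgeR 4.0.16 (filterByExpr, TMM, glmQLFit and glmQLFTest without covariates), which kept 14496 of 25403 genes. Benjamini-Hochberg adjustment ran over all tested genes with a threshold of 0.05, and the step was tested on simulated counts. Whether the livers of a group came from separate litters is not given, so p-values measure the spread between these livers. DESeq2 1.42.0, other scalings and filters, a mitochondrial covariate, a replicate block and leaving out each liver were alternatives. CPM are TMM-normalized. Levels per kb used the median length of coding transcripts in GENCODE vM21. The members and lists were chosen with earlier results of these data known. Named genes are *Themis*, every tested member with at least 50 counts on average, at most 2 called genes with the largest fold change per target list, and called genes among other receptors and coregulators. *Tomm40l*, *Nr1d1*, *Pdk4*, *Plin2*, *Acot2*, *Abcb11*, *Cyp7a1*, *Cyp2b10*, *Gsta1*, *Cyp2b9*, *Abcg1*, *Lpl*, *Cidec*, *Spp1* and the members *Nr4a2*, *Nr4a3* and *Nr2f1* were added after their values were seen, as were marker sums without the most abundant gene.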

Additional observations from a re-analysis of the deposited data

How the results depend on the processing

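With RLE or upper-quartile scaling, or a filter of at least 10 counts in every liver, edgeR called the same 3 members, and the calls over members, over all target genes and over all genes moved by less than 1.5 times in each direction. With upper-quartile scaling the hepatocyte markers called lower went from 2 to 0 and the glucocorticoid receptor targets from 1 to 0. Higher and lower calls among members were 1 and 1 with scaling by total counts alone, 1 and 5 with no filter, 1 and 6 with DESeq2, 0 and 0 with the mitochondrial type as a covariate, and 0 lower at a fold change of at least 2. Target genes were 13 higher with total counts alone, 11 higher and 22 lower with no filter, 13 and 26 with DESeq2, and 0 and 0 with the covariate. All genes were 1449 and 387 with total counts alone, 1212 and 967 with no filter, 1279 and 1090 with DESeq2, 0 and 3 with the covariate, and 269 and 162 at a fold change of at least 2. Leaving out each liver gave 0 to 4 members higher and 0 to 9 lower, 0 to 11 targets higher and 0 to 34 lower, and 8 to 2228 genes higher and 12 to 2039 lower, the largest without Themis KO 3. The cause of these shifts was not tested. With the replicate number as a block, 0 members were called in either direction, 0 targets were higher and 2 lower, and 17 genes were higher and 45 lower. The same-numbered livers did not pair (correlations of deviations 0.00028, −0.24 and −0.16).

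Log2 fold changes that turned direction with total counts alone were *Nr1i2* 0.042, *Nr2c1* 0.095, *Nr2f2* 0.0049, *Nr2f6* 0.074, *Nr6a1* 0.037, *Rara* 0.069, *Ppargc1a* 0.028 and *Ncor1* 0.097, and with the covariate *Nr1i2* 0.11, *Nr2f1* −0.0897, *Rara* 0.0087 and *Ncoa1* −0.068. Over the fits that leave out 1 liver, values that turned direction at least once ranged from −0.057 to 0.058 for *Nr1d2*, from −0.27 to 0.014 for *Nr1i2*, from −0.28 to 0.27 for *Nr2f1*, from −0.076 to 0.43 for *Pparg*, from −0.16 to 0.021 for *Rara*, from −0.066 to 0.34 for *Rarb*, from −0.054 to 0.28 for *Thra*, from −0.088 to 0.14 for *Hnf4a*, from −0.043 to 0.069 for *Rora*, from −0.31 to 0.023 for *Ppargc1a*, from −0.052 to 0.073 for *Ncoa1* and from −0.099 to 0.024 for *Ncor1*. None of these members was called. With a liver left out or with merged exons as the length, the differences in the *Rarb* share, the *Ncoa1* share and the p160 sum changed sign, the *Ppard* share difference ranged from 1.20 to 4.02 percentage points, and every other share and sum kept its direction.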
